A study of Mus musculus with 26 samples.

Results

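Regulatory T (Treg) cells sorted directly from mice were compared with naive CD4+ T cells, using 6 of the 26 libraries of the series: 4 of control Treg cells and 2 of naive cells. The genes compared were those on autosomes in the first of the deposited count tables, 20641 of 21761. Of these, 13 had 0 counts in each of the 8 ex vivo Treg libraries of that table but 10 or more in each of its other 12, and were left out, which leaves 20628 genes. edgeR's filter on low counts kept 11301 of them for testing.

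Control Treg cells were CD4+eGFP+ cells from Tet2fl/fl Tet3fl/fl Foxp3-eGFP mice of 3 weeks, whose labelled genotype carries no CD4-Cre, so that both floxed genes stayed undeleted by label. Naive cells, sorted as CD4+eGFP-CD25-CD62LhiCD44lo, were taken at 5 to 6 weeks from mice that carry a Foxp3-eGFP reporter. In both kinds of mice eGFP reports Foxp3, the background was C57BL/6, and cells came from spleen and lymph nodes. Cell type, age and floxed alleles changed together, and so did sex: Y-linked Ddx3y was counted at 74.2 to 98.4 CPM (the standard library-size-scaled count unit, here over TMM-adjusted totals) in control Treg libraries and at 0 in both naive libraries, whereas Xist was at 66.7 and 72 CPM in the naive libraries and at 0.0685 or less in the others. Library sets differed as well, and the 13 left-out genes split the 8 ex vivo Treg libraries from the other 12. The effects of these differences cannot be told apart from that of cell type. Sex chromosomes were set aside because of the difference in sex. The labels do not say whether replicates are separate animals, so each p measures the spread between these libraries, which may be technical.

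Treg cells restrain the responses of other T cells and depend on Foxp3, a forkhead transcription factor. They take up interleukin 2 through a high-affinity receptor, deprive conventional T cells of it, and dampen costimulation through CTLA-4. Naive CD4+ T cells have not met antigen, circulate through lymph nodes by way of homing receptors such as CCR7, and are kept quiescent by factors such as TCF-1, LEF1, FOXO1 and KLF2.

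Library totals were 13959282 to 17404755 counts in control Treg cells and 9647669 and 9925908 in naive cells. At least 1 count was found for 13561 to 13792 autosomal genes in the former and 12077 and 12125 in the latter, so a gene at 0 in naive cells was sought at a lower depth. Foxp3, which checks the labels, was counted at 705, 634, 592 and 657 CPM in control Treg libraries S1, S2, S3 and S4 and at 27.8 and 28.1 CPM in naive libraries 1 and 2, and values below follow that order. Replicates did not behave as copies of one library. In bulk RNA, fewer cells of a type and less RNA per cell cannot be told apart.

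Slightly more than every other gene differed. At an adjusted p of 0.05, edgeR called 6183 of the 11301 autosomal genes tested (54.7%): 3220 were higher in control Treg cells (28.5%) and 2963 were lower (26.2%). Differences of 2-fold or more were less even, with 1785 genes higher (15.8%) and 696 lower (6.16%), and at 4-fold or more there were 1246 higher and 202 lower. The median difference over the tested genes was 0.01 on the log2 scale, and the middle of the distribution, from the 20th to the 80th percentile, ran from -0.46 to 0.77. Another scaling shifted this balance: higher genes made up 52.1% of calls with TMM factors, 66% with raw library totals, and 64.5% and 65.4% in limma fits of the deposited FPKM, and raw totals moved the median to 0.15. The 2 groups did not overlap at 7728 of the tested genes, among them all but 23 of the called ones.

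**Figure D1:**
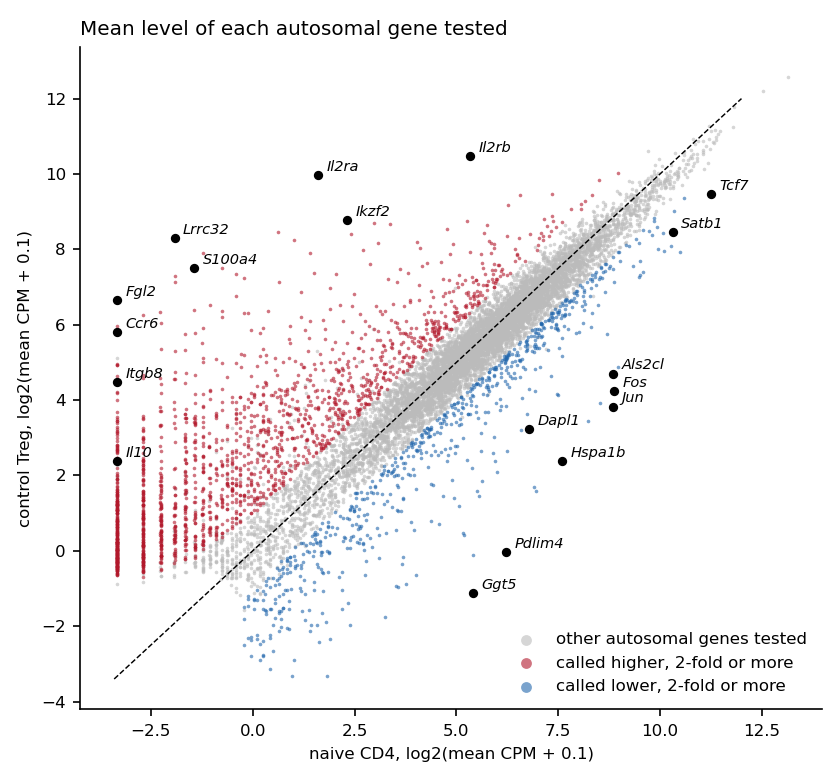
Mean level of each of the 11301 autosomal genes tested, as log2 of the mean CPM plus 0.1, in naive CD4 cells (2 libraries, horizontal) and control Treg cells (4 libraries, vertical). The dashed line marks equal levels, 1785 red genes were called higher by 2-fold or more and 696 blue genes lower, and the column of red points at the left edge holds genes at 0 counts in both naive libraries.

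The largest differences were of genes silent in naive cells. In all, 201 autosomal genes had 0 counts in both naive libraries and 10 or more in every control Treg library. Genes of the reverse kind numbered 15, and these include the 13 that were left out of the comparison. Folds of the 201 genes are lower bounds, set against 3 counts over the naive group, and cover counting error only. Fgl2, a secreted fibrinogen-like protein through which Treg cells suppress, was counted at 78.9, 120, 109 and 97.3 CPM and at 0 in both naive libraries, at least 619-fold higher. Il1rl1, the receptor for the alarmin interleukin 33, was at 48.5 to 73.7 CPM and 0 (at least 383-fold), and Ccr6, a homing receptor for CCL20, at 52.7 to 60.7 CPM and 0 (at least 342-fold). The other members of the largest 10 by fitted change were Il9r, a cytokine receptor (at least 191-fold), the proteoglycan Sdc4 and the GTPase Gbp2b (at least 187-fold each), the chemokine receptor Ccr3 (at least 153-fold), Itgb8, whose integrin releases active TGF-beta (at least 136-fold), the homing receptor Gpr15 (at least 113-fold) and the beta globin Hbb-b1, which is taken up with the other red-cell genes further on. Ccr3 belongs to 34 autosomal genes with 0 counts in all 12 naive and cultured libraries and 10 or more in all 8 ex vivo Treg libraries, a split that follows the library set as well as the cells.

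RefSeq promoters were at hand for 9 of these 10 genes. The AP-1 motif TGANTCA is in 4 of them, which are shown because AP-1 genes themselves stand among the largest differences in the other direction. Each stretch runs from 250 bases before to 50 bases after a RefSeq start site in GRCm38.p6, while the counts rest on mm9. Capitals mark matches to any of 8 motifs searched on both strands: the NF-kB consensus, forkhead TGTTTAC, RUNX TGTGGTT, ETS CCGGAAG, TCF/LEF CTTTGAA, KLF GGGNGGGGC, AP-1 TGANTCA and STAT TTCNNNGAA. The capitals are AP-1 and STAT in Fgl2 (chr5:21372423-21372722, plus strand), NF-kB and AP-1 in Ccr3 (chr9:124021721-124022020, plus), AP-1 and a run of RUNX matches in Gpr15 (chr16:58718823-58719122, minus), and AP-1 in Gbp2b (chr3:142594597-142594896, plus).
Fgl2: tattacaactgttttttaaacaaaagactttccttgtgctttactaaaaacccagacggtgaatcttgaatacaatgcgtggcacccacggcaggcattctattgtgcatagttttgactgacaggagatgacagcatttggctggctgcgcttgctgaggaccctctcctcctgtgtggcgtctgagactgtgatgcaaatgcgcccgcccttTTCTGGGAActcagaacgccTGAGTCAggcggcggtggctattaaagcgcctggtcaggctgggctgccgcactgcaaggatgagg
Ccr3: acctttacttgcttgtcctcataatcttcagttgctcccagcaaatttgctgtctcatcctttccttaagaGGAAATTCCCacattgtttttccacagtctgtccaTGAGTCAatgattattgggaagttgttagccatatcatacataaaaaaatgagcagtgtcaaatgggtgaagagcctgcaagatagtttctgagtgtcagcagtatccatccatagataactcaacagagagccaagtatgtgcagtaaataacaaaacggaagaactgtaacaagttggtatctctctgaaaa
Gpr15: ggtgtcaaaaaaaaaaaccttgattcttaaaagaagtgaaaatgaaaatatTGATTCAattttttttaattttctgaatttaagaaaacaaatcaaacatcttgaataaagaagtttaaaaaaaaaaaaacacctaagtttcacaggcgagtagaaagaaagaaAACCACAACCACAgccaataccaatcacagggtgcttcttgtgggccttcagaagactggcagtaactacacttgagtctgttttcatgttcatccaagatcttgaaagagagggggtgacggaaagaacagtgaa
Gbp2b: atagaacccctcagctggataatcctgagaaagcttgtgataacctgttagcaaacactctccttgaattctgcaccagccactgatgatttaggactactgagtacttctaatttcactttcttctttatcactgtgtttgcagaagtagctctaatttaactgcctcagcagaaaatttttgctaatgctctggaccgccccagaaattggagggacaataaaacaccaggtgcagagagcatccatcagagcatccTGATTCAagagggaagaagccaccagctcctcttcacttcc

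Over all tested genes with a promoter in the table (9053 of 11301), the AP-1 motif was in 4.73% of promoters. It was in 7.72% of the 1335 promoters of genes higher by 2-fold or more and in 4.46% of the 538 of genes lower by 2-fold or more. The NF-kB motif was in 1.24% of all promoters, 2.25% of the higher and 0.558% of the lower. The ETS motif was less frequent in both sets, at 19.7% over all genes, 7.79% in the higher and 10.8% in the lower. Forkhead (2.47%, 3.15% and 3.35%), RUNX (3.81%, 4.42% and 4.09%), TCF/LEF (3.62%, 3.9% and 2.79%), KLF (30.8%, 27.5% and 29%) and STAT motifs (7.07%, 7.12% and 6.13%) differed less between all, higher and lower genes. Base composition moved with the sets: the median promoter held 21 CpG pairs over all genes, 16 in the higher set and 20 in the lower, and its part in these shares was not tested. A match is a string of letters in this window and says nothing of binding.

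Among the genes that fell most, Ggt5, a glutamyl transferase, was counted at 0.0685 to 0.739 CPM in control Treg libraries and at 40.7 and 43.9 CPM in naive libraries. The difference was -6.80 ± 0.35 on the log2 scale (± SE from edgeR throughout). Pdlim4, a cytoskeletal adaptor, differed by -6.44 ± 0.19 and Atp8b4, a phospholipid flippase subunit, by -5.68 ± 0.21. Next came the transporter Slc16a5 (-5.39 ± 0.28), the AP-1 subunit Jun (-5.02 ± 0.18), the lectin receptor Klrd1 (-4.91 ± 0.49), the interferon-induced Ifi44 (-4.86 ± 0.43) and Lypd6b (-4.86 ± 0.22). The heat-shock genes Hspa1a (-5.29 ± 0.44) and Hspa1b (-5.25 ± 0.37) complete the 10. They are near-identical copies between which reads may be split, and the naive libraries themselves were apart, at 173 and 68.7 CPM for Hspa1a against 2.16 to 4.11 CPM in control Treg libraries.

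By level per transcript length (the deposited FPKM), the most abundant of the genes higher by 4-fold or more was Il2rb, the shared beta chain of the interleukin 2 and interleukin 15 receptors. Its FPKM was 548 ± 45.3 in control Treg cells (SD, n = 4) and 13.9 ± 1.65 in naive cells (n = 2). Izumo1r, the folate receptor 4 of Treg cells, stood at 378 ± 30.3 against 78.2 ± 14.9, and the calcium-binding S100a4 at 372 ± 46.4 against 0.508 ± 0.424. The galectin Lgals1 (362 ± 61.8 against 71.3 ± 7.03), the actin-capping Capg (357 ± 29.9 against 28.9 ± 3.76) and the costimulatory receptor Tnfrsf4, or OX40 (338 ± 29 against 7.74 ± 0.156), followed. At the other end, the most abundant transcripts of naive cells that were lower by 4-fold or more were Junb, an AP-1 subunit (FPKM 653 ± 108 in naive and 123 ± 15.9 in control Treg cells), Gapdh (582 ± 7.66 against 142 ± 13.9), Igfbp4, an insulin-like growth factor binding protein (561 ± 89.3 against 135 ± 13.4), and Zfp36, which destabilises cytokine mRNAs (387 ± 24.5 against 93.5 ± 6.06). Gapdh has many pseudogene copies and its counts are uncertain.

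All 34 tested autosomal genes of the list of Treg identity genes were higher in control Treg cells (28.5% over all genes tested). Their median log2 difference was 5.23 against 0.01 over all tested genes. This list, like the others below, was chosen with earlier results of these data known, so its counts are a description. For every list the background is the share over all genes tested, 28.5% higher and 26.2% lower. Il2ra, the alpha chain (CD25) that gives the interleukin 2 receptor its high affinity, was counted at 1014, 1043, 947 and 1007 CPM and at 3.12 and 2.77 CPM in naive cells (8.41 ± 0.13, edgeR adjusted p = 3.65e-11). CD25 was also a gate of the naive sort, and the sort itself selects on this gene. Il2rb, which was no gate, stood at 1588, 1380, 1383 and 1373 CPM against 36.8 and 43.5 CPM (5.16 ± 0.12, adjusted p = 7.49e-10). Every control Treg library lay far above both naive libraries for both chains.

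Ctla4, the inhibitory receptor that strips CD80 and CD86 from partner cells, was at 408, 322, 332 and 286 CPM against 4.20 and 6.20 CPM (6.02 ± 0.22). Ikzf2, which encodes the transcription factor Helios, was at 431, 486, 384 and 464 CPM against 3.87 and 5.87 CPM (6.50 ± 0.18), and Nrp1, neuropilin 1, at 370 to 471 CPM against 8.07 and 7.42 CPM (5.75 ± 0.15). No library of one group reached the range of the other. Tnfrsf18, the receptor GITR, had a high floor in naive cells (52.5 and 58 CPM) and was at 276 to 314 CPM in control Treg cells (2.42 ± 0.10). Ikzf4, which encodes Eos, differed by 3.47 ± 0.20.

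Of the list's members nearly silent in naive cells, Lrrc32 encodes GARP, which tethers latent TGF-beta to the Treg surface. It was counted at 258, 342, 319 and 348 CPM and at 0.108 and 0.221 CPM in naive cells, where 3 counts or fewer in all leave a wide ratio of 1950 (95% counting interval 667 to 9460). Klrg1, a marker of terminally differentiated cells, was at 60.4 to 98.6 CPM with a ratio of 1400 (251 to 55300). Tigit, an inhibitory receptor, was at 135 to 150 CPM with a ratio of 863 (295 to 4190). Itgae, the integrin CD103 that binds E-cadherin on epithelium, was at 230 to 261 CPM against 0.108 and 0.553 CPM (9.48 ± 0.24). All 4 were near background in naive cells and well above 10 CPM in each control Treg library.

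**Figure D2:**
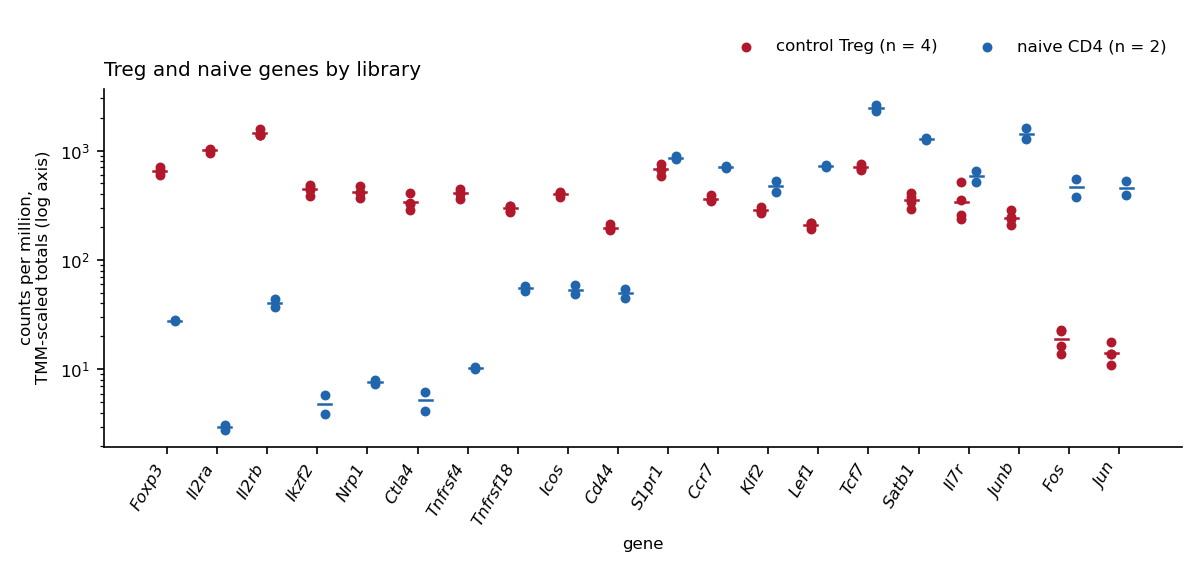
CPM on a log axis of 20 named genes, by library: 4 control Treg libraries and 2 naive libraries, 1 point each. Treg genes such as Il2ra sit near 1000 CPM in control Treg cells against about 3 CPM in naive cells, and naive genes such as Tcf7 are shifted the other way by a smaller factor.

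Suppressor and tissue-repair molecules were mostly higher: 20 of 23 tested were higher, 1 was lower and 2 did not pass, with a median difference of 7.27, or 4.97 with the 6 genes at 0 in naive cells set to their lower bounds. Il10, an anti-inflammatory cytokine, was at 4.87, 5.11, 4.77 and 5.75 CPM and at 0 in both naive libraries, at least 31.3-fold higher. Entpd1, the ectonucleotidase CD39 that starts the breakdown of extracellular ATP, was at 61.9 to 72.3 CPM against 0 and 0.221 CPM, a ratio of 600 (166 to 4960). Gzmb, the protease granzyme B, was at 34.5 to 48.1 CPM against 0.215 and 0.221 CPM (7.47 ± 0.31), and Ebi3, a subunit of interleukin 35, at 16.4 to 27.9 CPM with a ratio of 446 (79.9 to 17600). Areg, the repair factor amphiregulin, was scarce, at 0.411 to 0.863 CPM and 0, at least 3.91-fold higher. The list's lower member was Prf1, the pore-forming perforin (-2.04 ± 0.12). Tgfb1 was at 217, 227, 253 and 236 CPM against 212 and 197 CPM, and its difference of 0.19 ± 0.09 did not pass (adjusted p = 0.0824). In edgeR, Tgfb1 passed as higher without library S1 (0.23, adjusted p = 0.0334) and with all 20 libraries (0.21, adjusted p = 0.0366). It also passed there with upper quartile factors (0.26, adjusted p = 0.0225) and with raw library totals (0.33, adjusted p = 0.00728). Both limma fits of FPKM called it higher (0.33 each, adjusted p = 0.00651 and 0.00626). Its call thus depends on the scaling and on the libraries in the fit.

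Genes of the TNF receptor and NF-kB list went both ways, with 19 higher, 11 lower and 3 not passing of 33 tested (median 0.38). The higher members included receptors: Tnfrsf1b, the TNF receptor 2 that expands Treg cells, was at 676, 736, 748 and 619 CPM against 87.3 and 102 CPM (2.88 ± 0.12), and Tnfrsf9, or 4-1BB, differed by 3.95 ± 0.17. Tnfrsf13b, which encodes the receptor TACI, differed by 1.67 ± 0.15. Tnfrsf8, or CD30, was nearly absent from naive cells, with a ratio of 204 (36.5 to 8070). In the list of costimulatory and inhibitory receptors and ligands 19 of 26 were higher, 3 were lower and 4 did not pass (median 1.17), and without either naive library 0 were lower. The costimulator Icos was at 412, 418, 409 and 372 CPM against 48.5 and 58.8 CPM (2.91 ± 0.11), the inhibitory receptor Pdcd1, or PD-1, differed by 4.10 ± 0.16, and Havcr2, or TIM-3, was at least 36.1-fold higher. Ligands usually ascribed to antigen-presenting cells moved with them: Cd80 (ratio 217, 38.9 to 8590), Cd83 (6.57 ± 0.20) and Pdcd1lg2, or PD-L2 (4.34 ± 0.20). B cell and myeloid transcripts were higher in the same libraries, as given further on, and their part in these 3 was not tested.

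Homing receptors were higher in 22 of 33 tested, lower in 5 and short of the threshold in 6 (median 2.18), and the lower count was 3 without either naive library. Ccr4, a receptor for skin and inflammatory chemokines, was at 185, 265, 284 and 220 CPM against 2.47 and 2.66 CPM (6.54 ± 0.26). Ccr2, which follows CCL2 to inflamed tissue, was at 137 to 181 CPM against 0.108 and 0.221 CPM, a ratio of 968 (331 to 4700). Ccr8, a receptor of tissue Treg cells, differed by 4.44 ± 0.15 and Cxcr6 by 3.67 ± 0.32. The lymph node receptor Ccr7 went the other way, at 391, 363, 354 and 347 CPM against 697 and 725 CPM (-0.97 ± 0.08). S1pr1, the receptor through which T cells leave lymph nodes, differed by -0.36 ± 0.09, and its call was lost without naive library 2.

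Effector and memory genes rose with these receptors. The effector Treg list had 21 higher, 1 lower and 1 not passing of 23 (median 3.45), and the memory and migration list 18 higher, 1 lower and 4 not passing of 23 (median 2.01). The memory list had 2 lower genes without S3. Cd44, a gate of the naive sort, was at 190, 199, 212 and 189 CPM against 53.9 and 45.0 CPM (2.00 ± 0.11). Maf, a transcription factor of interleukin 10-producing T cells, was at 146 to 186 CPM against 4.20 and 3.87 CPM (5.32 ± 0.16). Prdm1, which encodes Blimp-1, differed by 1.96 ± 0.17, Irf4 by 3.37 ± 0.13, Nfil3 by 3.45 ± 0.19 and the phosphatase Dusp4 by 5.73 ± 0.21. Pparg, the regulator of visceral fat Treg cells, was absent from naive libraries and at least 27.3-fold higher. Calcium-binding and cytoskeletal memory genes had large differences, with S100a4 at 9.32 ± 0.30, S100a6 at 8.51 ± 0.29, Myo1f at 6.69 ± 0.25, Lgals3 at 6.58 ± 0.71 and Anxa2 at 4.74 ± 0.24.

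Genes of helper lineages were also mostly higher: 9 of 17 Th1 genes (4 lower, median 1.14), 7 of 8 Th2 genes (1 lower, 4.88), 7 of 8 Th17 genes (none lower, 3.44) and 9 of 11 Tfh genes (none lower, 2.91). Some levels were low. Tbx21, the Th1 regulator T-bet, was at 6.44, 7.46, 9.48 and 8.79 CPM against 0.323 and 0.332 CPM (4.58 ± 0.37). Il17a was at 0 in all 6 libraries. Gata3, the Th2 regulator, differed by 0.53 ± 0.10. Among Tfh genes the B cell follicle receptor Cxcr5 differed by 3.38 ± 0.15, Tox2 by 4.59 ± 0.34 and Angptl2 by 5.71 ± 0.22, whereas Bcl6 did not pass (0.18 ± 0.27). Of 33 cytokine genes listed 17 were tested, with 12 higher, 1 lower and 4 not passing; the chemokine Ccl5 differed by 4.56 ± 0.31. Cytotoxic granule genes and chemokines were higher in 10 of 18, lower in 4 and short of the threshold in 4 (median 0.75).

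Naive and quiescence genes were mostly lower, by smaller factors: 31 of 36 tested were lower, 1 was higher and 4 did not pass, with a median of -0.77. Tcf7, which encodes TCF-1, was counted at 679, 712, 662 and 755 CPM against 2307 and 2609 CPM (-1.81 ± 0.08). Lef1 was at 192 to 218 CPM against 743 and 708 CPM (-1.80 ± 0.08), and Satb1, a chromatin organiser, at 291 to 406 CPM against 1242 and 1308 CPM (-1.85 ± 0.11). These 3 regulators were lower in every control Treg library, but each was still above 100 CPM there. Bach2, which restrains effector differentiation, differed by -0.82 ± 0.11, Klf2 by -0.73 ± 0.10 and Foxo1 by -0.50 ± 0.11, the last losing its call without naive library 2. Als2cl had the largest fall of the list, at 28.4, 27.9, 17.8 and 29.6 CPM against 472 and 448 CPM (-4.15 ± 0.17), followed by Dapl1 (-3.57 ± 0.11), Igfbp4 (-2.19 ± 0.11), the actin cross-linker Actn1 (-2.14 ± 0.12) and Arl4c (-1.95 ± 0.08). Il7r, the survival receptor for interleukin 7, was at 515, 255, 236 and 356 CPM against 655 and 519 CPM and did not pass (-0.79 ± 0.36, adjusted p = 0.122). Library S1 stood highest of the Treg libraries, and without it Il7r differed by -1.05 with an adjusted p of 0.0112.

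Receptor signalling components were lower more often than higher. In the T cell receptor complex list 21 of 36 were lower, 2 were higher and 13 did not pass (median -0.43). Themis, a signal modulator of T cell receptor strength, was at 54.0, 64.4, 63.9 and 64.5 CPM against 333 and 299 CPM (-2.36 ± 0.10). The diacylglycerol kinase Dgka differed by -1.33 ± 0.11 and the adaptor Grap2 by -1.18 ± 0.10. Ubash3b, a phosphatase that dampens the receptor, was higher (1.69 ± 0.11). The receptor chain Cd3d (0.04 ± 0.09) and the kinase Zap70 (0.03 ± 0.09) did not pass, and Cd4 differed by -0.50 ± 0.09. The count of higher genes was 2, and was 4 without library S1.

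The early response list, which holds the AP-1 genes, split into 13 higher, 16 lower and 4 not passing of 33 (median -0.27). Fos was at 22.3, 13.9, 16.4 and 22.9 CPM against 378 and 554 CPM (-4.62 ± 0.24), Jun at 10.9, 13.7, 13.7 and 18.0 CPM against 391 and 526 CPM, and Junb at 209 to 283 CPM against 1262 and 1596 CPM (-2.55 ± 0.12). Ppp1r15a, which reverses the translational stress block, differed by -4.08 ± 0.12. Members on the other side included Rgs1 (3.57 ± 0.17) and Egr2 (1.74 ± 0.12), while Myc (-0.08 ± 0.08) and the activation marker Cd69 (-0.17 ± 0.12) did not pass. The heat-shock genes given above are also induced by stress. The summed level of the early response list was 2977 to 3085 CPM in control Treg libraries and 5694 and 7040 CPM in naive libraries, and the part of handling or sorting was not tested.

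In the TGF-beta list 12 of 29 were higher, 10 lower and 7 not passing (median 0.09). These are 41.4% higher and 34.5% lower, against 28.5% and 26.2% over all genes tested. The receptors of the list moved apart. Tgfbr1, the signalling receptor, was at 208, 261, 252 and 222 CPM against 49.5 and 47.8 CPM (2.28 ± 0.12), whereas Tgfbr3, an accessory receptor, was at 18.0, 18.8, 13.6 and 20.1 CPM against 185 and 167 CPM (-3.32 ± 0.13). Smad3 did not pass (-0.14 ± 0.08). Ltbp1, a binding protein of latent TGF-beta, and Tgfbi were absent from naive libraries and at least 12.9-fold and 13.2-fold higher.

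Genes of DNA methylation and its removal showed little net movement, with 7 of 29 higher, 7 lower and 15 not passing (median -0.06), and without naive library 1 the higher count was 4. The 7 genes in each direction are 24.1% of those tested, near the 28.5% higher and 26.2% lower over all genes tested. The floxed genes are part of this list. Tet3 was at 154, 129, 123 and 165 CPM against 277 and 273 CPM (-0.94 ± 0.12), and Tet2 at 14.3, 13.9, 9.73 and 15.1 CPM against 18.9 and 18.2 CPM (-0.48 ± 0.18, edgeR adjusted p = 0.0432), a call lost under most alternatives. Tet1 was at 12.0 to 23.5 CPM against 43.4 and 41.5 CPM (-1.31 ± 0.22). The naive libraries lay above the Treg libraries for all 3, and a part of the floxed alleles in Tet2 and Tet3 cannot be told apart from cell type. Dnmt3a, a de novo methyltransferase, was higher (0.41 ± 0.09), while Dnmt1 (-0.07 ± 0.11) and Dnmt3b (-0.28 ± 0.16) did not pass. Uhrf1, which guides Dnmt1 to replicated DNA, was at 87.9, 32.0, 75.7 and 28.1 CPM against 9.47 and 10.3 CPM, and its call as higher was lost without S1, without S3 or without either naive library. Of 28 Polycomb genes 4 were higher (14.3%), 9 lower (32.1%, against 26.2% over all genes tested) and 15 did not pass (median -0.18). The higher count was 7 with raw totals, upper quartile factors, both limma fits and all 20 libraries.

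Interleukin receptor signalling through the common gamma chain, JAK, STAT and SOCS proteins had 10 of 28 higher, 4 lower and 14 not passing (median 0.05). These are 35.7% higher and 14.3% lower, against 28.5% and 26.2% over all genes tested. The feedback inhibitors Socs2 (8.21 ± 0.48) and Cish (3.41 ± 0.19) and the kinase Pim1 (1.08 ± 0.11), known targets of STAT5, were higher, whereas Stat5b (0.03 ± 0.07) and Stat3 (-0.05 ± 0.08) did not pass. Of 47 transcription factors 14 were higher, 27 lower and 6 did not pass (median -0.37). The lower share was 57.4%, against 26.2% over all genes tested, and the higher share was 29.8%, against 28.5%. Runx2 (4.72 ± 0.30), Rora (3.33 ± 0.22) and the aryl hydrocarbon receptor Ahr (3.51 ± 0.19) were among the 14 higher, the smaller side. BCL2 family genes were higher in 13 of 17 with none lower (median 0.97). Bcl2l1, which encodes the survival protein BCL-XL, was at 95.5, 113, 116 and 109 CPM against 24.5 and 26.2 CPM (2.09 ± 0.12), Pmaip1, which encodes the pro-death NOXA, differed by 4.21 ± 0.25, and Bcl2 itself did not pass (0.05 ± 0.10). The near-identical copies Bcl2a1a, Bcl2a1b and Bcl2a1d are uncertain.

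Metabolic and translational lists differed in direction. Over all genes tested 28.5% were higher and 26.2% lower. The glycolysis list (30.4% and 26.1%) and the cholesterol and lipid list (33.3% and 21.2%) were near these shares. Of 14 nutrient transporters 8 were higher, 2 lower and 4 did not pass (median 0.40), and the counts were 5 and 0 without naive library 1. The list held the lactate exporter Slc16a3 (3.67 ± 0.22) and the glucose transporter Slc2a3 (1.59 ± 0.10). Of 23 glycolysis genes 7 were higher, 6 lower and 10 did not pass (median 0.10), and the higher count was 11 with raw totals and in both limma fits. The hexokinase Hk2 differed by 5.30 ± 0.41 and Pdk1, a pyruvate dehydrogenase kinase, by -1.76 ± 0.10. Of 33 cholesterol and lipid genes 11 were higher, 7 lower and 15 did not pass (median 0.19), and the lower count was 1 without naive library 1 and 4 without naive library 2 or S3. The higher count was 7 without naive library 2. Ribosomal protein genes were lower in 44 of 50 and higher in 1 (median -0.36), a shift of small size whose count was 27 with raw library totals and 23 without naive library 2. Genes of oxidative phosphorylation were higher in 17 of 39, lower in 2 and short of the threshold in 20 (median 0.25). That count was 31 with raw totals and 7 without naive library 1. GIMAP genes, which support survival of resting lymphocytes, were lower in 5 of 8 and higher in 1 (median -0.36), and in 3 and 0 without naive library 1. Anergy genes and ubiquitin ligases were even, with 7 higher, 7 lower and 4 not passing of 18 (median -0.12), and the lower count was 4 without naive library 1.

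**Figure D3:**
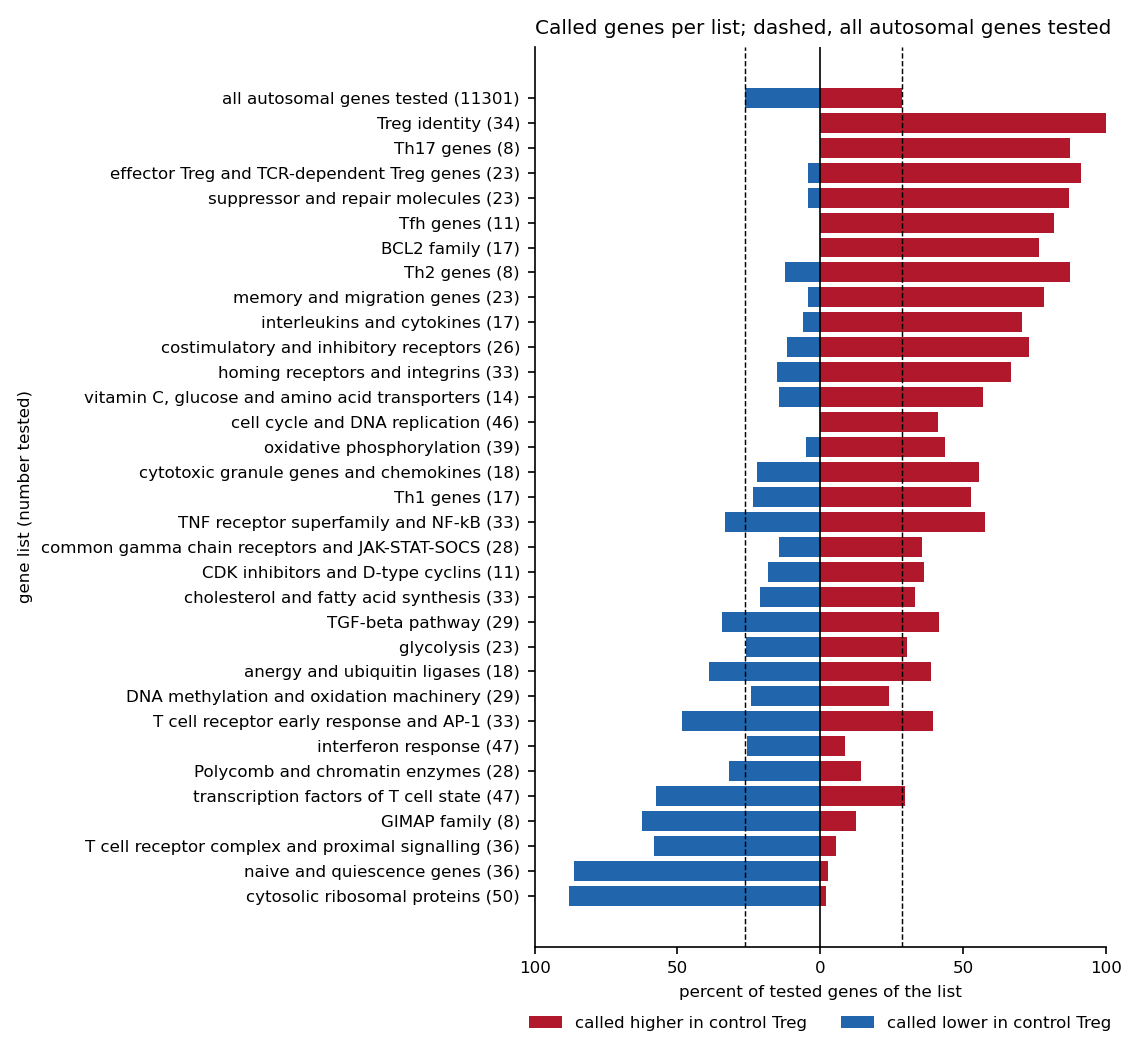
Percent of tested autosomal genes of each list called higher (red) or lower (blue) in control Treg cells, with dashed lines at the shares over all 11301 genes, 28.5% higher and 26.2% lower. The Treg identity bar reaches 100% higher, and the bars of naive genes and ribosomal proteins extend furthest on the lower side.

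Cell cycle genes divided the control Treg libraries themselves. Of 46 tested, 19 were higher, none was lower and 27 did not pass (median 2.28). Their summed level was 3169, 1799, 3038 and 1645 CPM in S1, S2, S3 and S4 against 1236 and 1191 CPM in naive cells. Aurkb, a mitotic kinase, was at 31.2, 7.89, 25.4 and 4.86 CPM against 0.753 and 1.11 CPM (4.20 ± 1.32), and Tk1, the S-phase thymidine kinase, at 32.2, 9.30, 28.4 and 7.46 CPM against 1.51 and 1.44 CPM (3.70 ± 1.04). Both calls were lost without S1, without S3, without either naive library and with no count filter. S1 and S3 were high and S2 and S4 low, yet all 4 lay above the naive range. The count moved with the libraries: 9 genes were called higher without S1, 30 without S2, 38 without S4, 4 without naive library 1 and 5 without naive library 2. With both S1 and S3 left out, an alternative chosen after seeing the data, 35 were. The method moved it too, to 39 with DESeq2, 41 with all 20 libraries in the fit, 32 with limma on log2(FPKM + 0.1) and 8 with no count filter.

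Of 47 interferon-response genes tested 12 were lower (25.5%, against 26.2% over all genes tested), 4 were higher (8.51%, against 28.5%) and 31 did not pass, with a median of -0.39. The lower share is thus at the background, and single members had large differences. Oas2, an antiviral sensor, differed by -4.75 ± 0.41. Oasl1 was at 2.26, 10.4, 4.01 and 10.7 CPM against 33.9 and 31.1 CPM, and Oasl2 at 4.87, 25.1, 7.32 and 19.5 CPM against 71.8 and 76.8 CPM (-2.37 ± 0.66). For these 2 genes S2 and S4 were above S1 and S3, and below the naive libraries. The lower count of the list was 19 without S2, 6 without S3, 5 without naive library 1 and 5 without naive library 2. Gbp3, an interferon-induced GTPase, was higher (2.99 ± 0.17).

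Marker transcripts of B cells, myeloid cells and red cells were more abundant in the control Treg libraries. The 15 tested B cell markers summed to 152 to 325 CPM against 8.71 and 14.1 CPM, and 14 were higher. Of these Pax5, Ebf1, Cr2 and Fcer2a were among those at 0 in both naive libraries. Myeloid markers summed to 152 to 180 CPM against 59.2 and 60.3 CPM, with 12 of 17 higher. The complement genes C1qa, C1qb and C1qc of macrophages averaged 10.4, 9.58 and 10.9 CPM and were at 0 in naive cells (chosen after their values were seen). Red-cell genes differed most in proportion, at 382, 589, 672 and 929 CPM against 2.04 and 3.54 CPM, with all 6 higher. Among them was Hbb-b1 (57.1, 93.9, 108 and 161 CPM, and 0). Markers of NK and innate lymphoid cells summed to 1408 to 1624 CPM against 65.7 and 74.6 CPM, but that list holds Il2rb, which makes up most of it. Of its 8 tested members 5 were higher and 2 lower. CD8 T cell markers summed to 324 to 350 CPM against 148 and 157 CPM, with 3 of 6 tested higher and 3 lower. Invariant NKT markers summed to 361 to 421 CPM against 288 and 264 CPM, with 6 of 8 higher. Stromal and endothelial sums overlapped, at 188 to 270 CPM against 248 and 274 CPM. Thymocyte markers were lower in sum, at 1428 to 1670 CPM against 3118 and 3139 CPM, but that list holds Satb1, Themis and Cd4, lower as given above. Of its 11 tested members 4 were higher and 7 lower. Its members Rag1, Rag2 and Ptcra were at 0 in both naive libraries and were detected in control Treg cells. General T cell markers were at 5012 to 5932 CPM against 6777 and 7121 CPM. The part of these cells in the differences above was not tested. Treg markers summed to 2569 to 2835 CPM against 91.4 and 101 CPM.

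**Figure D4:**
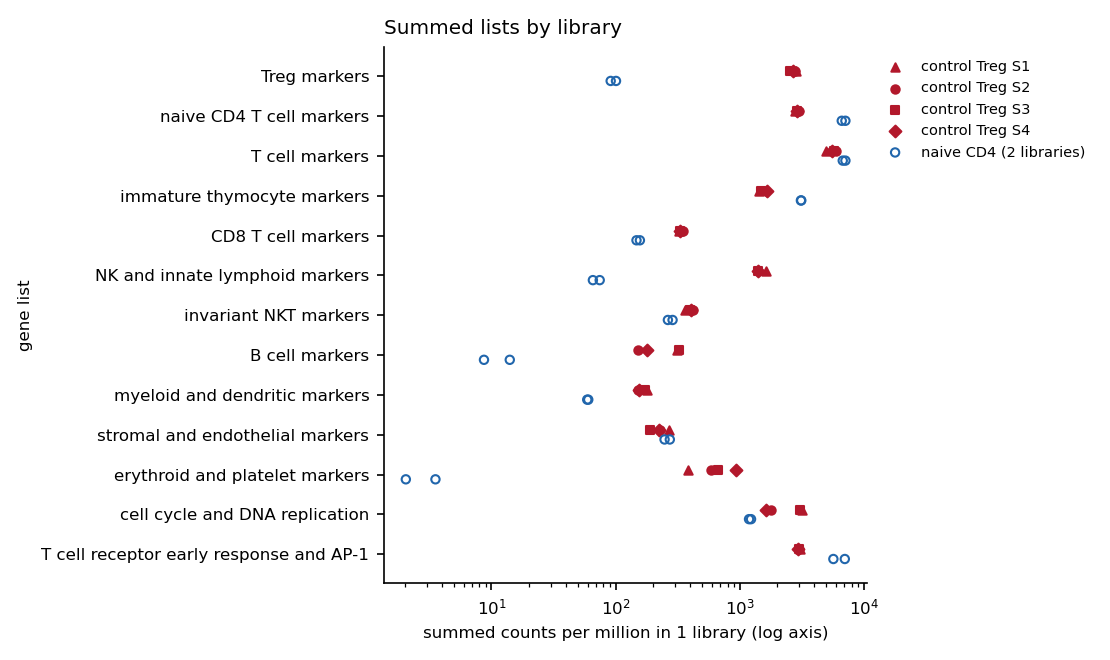
Summed CPM of each marker list by library, on a log axis, for 4 control Treg and 2 naive libraries. B cell, myeloid, erythroid, NK, CD8 and invariant NKT sums lie higher in every control Treg library than in both naive libraries. Thymocyte and general T cell sums lie lower, and stromal and endothelial sums overlap.

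The same genes were compared between 2 groups of cultured cells, neither of which enters the comparison above. The fit covered 12 libraries, and the 2 naive ones are among them, so that they bear on its low-count filter and its estimate of spread, though not on the group means. Induced Treg cells made from naive CD4+ T cells with TGF-beta (TGFb iTreg) were set against Th0 cells made with anti-CD3 and anti-CD28, both from reporter mice of 5 to 6 weeks, with 2 libraries each. The labels do not say whether TGFb iTreg were sorted on eGFP. Of 10582 genes tested in both comparisons, 1487 were higher (14.1%) and 1255 lower (11.9%) in TGFb iTreg. Of the 1785 genes higher by 2-fold or more in control Treg cells, 1254 were tested, of which 414 (33%) were also higher in TGFb iTreg and 129 (10.3%) lower. These 414 are 27.8% of all genes higher in TGFb iTreg. Of the 696 genes lower by 2-fold or more 671 were tested, and 110 (16.4%) were lower and 88 (13.1%) higher in TGFb iTreg, which are 8.76% and 5.92% of the genes lower and higher there.

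Treg identity genes divided in culture, where 23 of 30 tested were higher, 1 lower and 6 did not pass. Foxp3 differed by 5.08 ± 0.12 between TGFb iTreg and Th0, Ikzf2 by 3.62 ± 0.18, Nrp1 by 2.38 ± 0.16, Ctla4 by 1.87 ± 0.16 and Il2ra by 1.11 ± 0.09. Levels did not all stand to control Treg cells in the same way. Ikzf2 had an FPKM of 48.4 in control Treg cells, 7.05 in TGFb iTreg and 0.56 in Th0, and Nrp1 of 42.7, 9.07 and 1.71. Il2ra stood at an FPKM of 594 in TGFb iTreg and 269 in Th0. Both were above its level in control Treg cells, where it ranked below Hbb-bs (FPKM 262.6). Control Treg levels of Foxp3 and Ctla4 are not set against culture here. Ccr6, Il10 and Itgb8 were at or near 0 in TGFb iTreg, with an FPKM of 0.677, 0 and 0.

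Naive genes went both ways in culture. Of 36 naive genes 12 were higher and 8 lower in TGFb iTreg than in Th0. Over all genes tested in both comparisons, 14.1% were higher and 11.9% lower in TGFb iTreg. Tcf7 was lower in both comparisons (-1.41 ± 0.12 in culture), but Il7r was higher in TGFb iTreg (1.46 ± 0.20). Of 32 early response genes 16 were higher and 1 lower in TGFb iTreg, and Jun differed by 1.71 in culture against -5.02 ex vivo. With 2-fold or more in each, 254 genes were higher in both comparisons, 48 lower in both, 39 higher ex vivo and lower in culture, and 27 lower ex vivo and higher in culture. The globins Hbb-b1 and Hbb-bs were among the 254. Their FPKM was 64.5 and 20.7 in TGFb iTreg and 0.861 and 0.384 in Th0. Cxcr6 (-5.11 in culture) and Bcl2a1d (-2.94) were among the 39. Prf1 (5.05), Jun and Sgk1 (2.46), the last a salt- and growth factor-responsive kinase chosen after its values were seen, were among the 27.

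**Figure D5:**
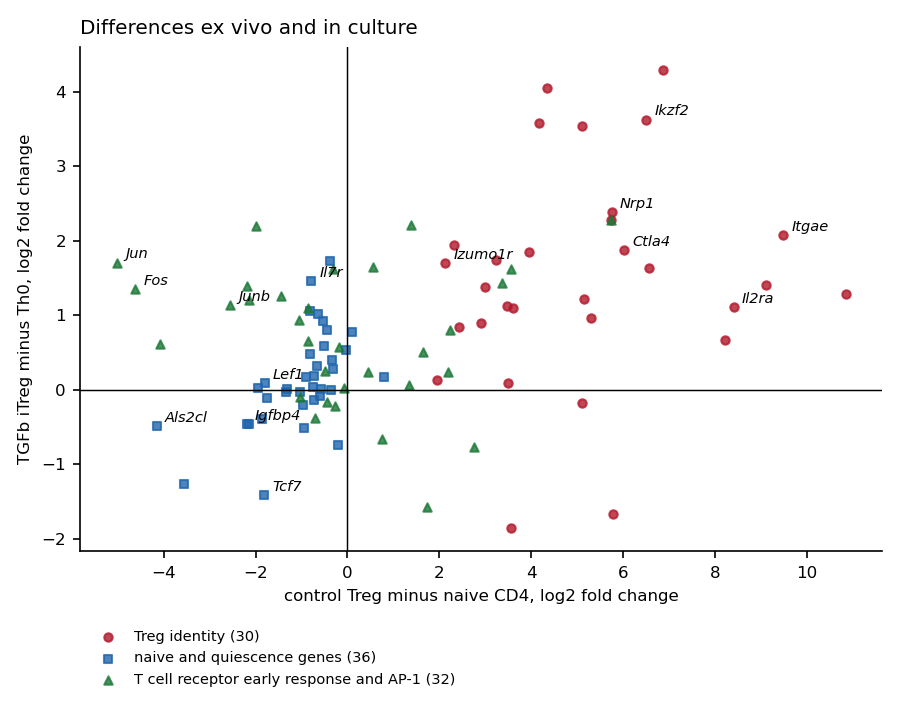
Log2 difference of control Treg minus naive cells (horizontal) against TGFb iTreg minus Th0 (vertical) for 30 Treg identity, 36 naive and 32 early response genes tested in both. Treg identity genes lie at the right and mostly above 0, naive genes mostly at the left with either sign in culture, and early response genes mostly above 0 in culture on both sides of 0 ex vivo.

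In Treg cells that lacked Tet2 and Tet3 (Tet2/3-deficient, 3 weeks), the genes that marked control Treg cells had levels of their own, given as values only. Il10 had an FPKM of 4.05 ± 0.365 in control Treg cells and 0.199 ± 0.112 in Tet2/3-deficient Treg cells. Ccr6 stood at 27.8 ± 2.14 and 6.33 ± 0.561, Il1rl1 at 9.24 ± 1.52 and 1.42 ± 0.536, Ikzf2 at 48.4 and 33.4, and Nrp1 at 42.7 and 20.2. Fgl2 was at 27.7 ± 4.48 and 46.3 ± 11.7. Both groups are ex vivo libraries, and the 4 control libraries are those compared with naive cells above.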

How the data were processed

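RNA was extracted with an RNeasy plus mini or micro kit and libraries were made with a TruSeq stranded mRNA kit, per the labels' protocols. The submitters' processing notes list the build mm9, edgeR 3.26.6 under R 3.6.1, alignment software TopHat2 (version 2.1.1), the read trimmer Trim Galore (version 0.4.2), bcl2fastq (version 2.20.0.442) for base-call conversion, and for alignment files Picard (version 2.5.0) and SAMtools (version 1.7); the counting tool and annotation are not given in the sources used here. The authors deposited raw gene counts and FPKM, and each deposited FPKM equals the count divided by the column total and gene length (largest relative difference 5.14e-15).

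Genes were placed on chromosomes by Entrez identifier in the RefSeq GRCm38.p6 table, which matched 21615 of 21761. Counts of 4 control Treg and 2 naive columns were fitted with edgeR 4.0.16 (R 4.3.3) by the quasi-likelihood F-test with TMM factors and filterByExpr, two-sided, with 4 residual degrees of freedom and Benjamini-Hochberg adjustment over all 11723 genes tested. Genes were called at an adjusted p of 0.05. TGFb iTreg and Th0 were compared in the same way, in a fit of the 12 naive and cultured libraries with 6 residual degrees of freedom. Zero counts were floored at 3 over the group, and exact intervals at 95% cover counting error only. Promoters were searched in Python 3.11.15. The code was tested on simulated data.

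Genes named are the 10 with the largest change in each direction with 10 CPM or more in the higher group and no overlap, up to 6 called members of each list, a followed set, the 10 with the highest FPKM among 4-fold changes, and members that did not pass but whose role is described. Members and lists were chosen with earlier results of these data known. Alternatives were other normalisations, no count filter, DESeq2 1.42.0, limma 3.58.1 on log2(FPKM + 1) and log2(FPKM + 0.1), a required log2 change of 1, all 20 libraries and leaving libraries out. The alternative without S1 and S3 was chosen after seeing the data. The labels tie the S numbers of the control Treg columns to their group, not to single samples. Some genes that this rule names are not reported here.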

Additional observations from a re-analysis of the deposited data

Results flagged for a closer look

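Of 219 gene and marker-sum values examined over the 4 control Treg libraries, 16 had 1 library set apart from the other 3 beyond Dixon's 95% critical value. Chance flags about 1 in 20 groups, S1 was the library apart in 7 cases, S3 in 5 and S4 in 4, and no cause was tested. S1 was highest for Il2rb, at 1588 CPM, and for the NK and innate lymphoid marker sum that contains it, at 1624 CPM, and for Tnfrsf8 at 15.35 CPM. It was lowest for Themis at 53.99 CPM, Prdm1 at 33.51 CPM, Pim1 at 293 CPM and Gimap9 at 130.6 CPM. S3 was lowest for Als2cl at 17.81 CPM, Mbd6 at 32.06 CPM and Il1r1 at 0.5088 CPM, and highest for Pdcd1lg2 at 36.45 CPM and Cox6c at 117.7 CPM. S4 was highest for the histone methyltransferases Kmt2a at 231.4 CPM (116.5 to 124.8 in the others) and Kmt2d at 134.7 CPM (74.36 to 79.73 in the others) and for Dnmt3a at 140.2 CPM, and lowest for Nfil3 at 19.9 CPM. The call of Kmt2a (-1.29 ± 0.32, lower by edgeR) was lost without S1 and without either naive library.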

How the results depend on the processing

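The 3220 higher and 2963 lower autosomal genes were 1272 and 334 when a log2 difference of 1 was required in the test, and of genes past 2-fold, limma on log2(FPKM + 1) called 1023 higher and 325 lower. Leaving out each library in turn gave 1900 to 3162 lower genes, the fewest without naive library 1 and the most without S1. Without S1 and S3 there were 3297 higher and 2987 lower. Of 202 named genes called, 176 were called without naive library 1, 186 without naive library 2, 190 of 198 with limma on log2(FPKM + 1) and 140 with a required log2 difference of 1, and none reversed. With raw library totals, list counts moved from 2 to 6 higher for the T cell receptor complex, and among lower genes from 5 to 2 for homing receptors, 3 to 0 for costimulatory receptors, 7 to 4 for anergy, 7 to 3 for cholesterol and 5 to 3 for GIMAP genes. Dnmt1, which did not pass, changed sign from -0.07 to 0.069 with raw totals and 0.063 and 0.065 with limma (+1 and +0.1), and ran from -0.166 to 0.04 with each library left out, the last without naive library 1. For TGFb iTreg against Th0, leaving out a library gave 879 to 1093 higher and 568 to 831 lower genes. A replicate block gave 1974 higher and 1768 lower against 1571 and 1281, but same-numbered TGFb iTreg and Th0 samples correlated at only 0.085 and share only a number. No paired analysis was possible for control Treg against naive cells because the mice differ and the S numbers pair no samples. Depth limits what was seen at 0 in naive cells, whose totals were 9647669 and 9925908 counts, and 2 naive libraries limit every count.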
